A study of Mus musculus with 212 samples.

Results

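Bmal1-/- mouse skin fibroblasts were compared with wild-type (WT) fibroblasts in the time course labelled PM, taken as all 34 libraries whose label carries PM out of 212 libraries in the series. The Bmal1-/- PM course and the WT PM course hold 17 libraries each, 1 at each circadian time (CT) label from CT00 to CT48 in steps of 3 h. All cells were C57BL/6 skin fibroblasts grown to confluence, and both genotypes received the same 100 nM dexamethasone for 15 min, a glucocorticoid pulse that sets cultured clocks to a common time. Incubation continued in darkness in a medium buffered with HEPES, and harvesting began 48 h after the pulse; the labels list 3 incubation temperatures and do not assign one to the PM course. Each time point drew on 3 wells per genotype, and the labels do not say whether the wells were pooled. The labels give neither the meaning of PM and AM, nor the allele or deleted exons of Bmal1, nor the number of cell preparations or animals behind each genotype. Genotype and cell preparation therefore cannot be told apart, and a p-value here reflects only how much the libraries of 1 course vary, which may be technical. The AM course, with 17 libraries per genotype at the same CT labels, was used only to ask where the PM difference departs from it.

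BMAL1, the product of Arntl, pairs with CLOCK or NPAS2 and activates genes through E-box elements. Among these genes are the Per and Cry repressors, which shut off BMAL1-CLOCK, and the REV-ERB receptors Nr1d1 and Nr1d2, which repress Arntl and compete with the ROR activators. Skin fibroblasts make and remodel the collagenous matrix of the dermis, carry a memory of body position in their Hox genes, and keep a cell-autonomous clock in culture.

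Transcript levels were given as FPKM, fragments scaled to transcript length and library size, and compared as log2(FPKM + 1). Differences below are Bmal1-/- minus WT on that scale, with equal CT labels paired, so a positive value means more transcript in Bmal1-/-. For genes near 0 in 1 genotype these values understate the ratio and depend on the pseudocount of 1 FPKM. A gene was called at an adjusted p under 0.05 in limma and at least a 2-fold difference. Of 13431 genes that averaged 1 FPKM or more, 982 were called higher (7.31%) and 1107 lower (8.24%) in Bmal1-/-, and 10978 had an adjusted p under 0.05, so the 2-fold limit decides most calls. Among the calls, 954 of the higher genes were higher at all 17 CT labels, and 1066 of the lower genes were lower at all 17. In 2339 genes every Bmal1-/- library lay above every WT library, and in 2405 every one lay below. The median difference over all tested genes was -0.01.

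Estimated depth ran from 14.25 to 27.3 M reads in WT and from 19.27 to 26.82 M in Bmal1-/-. Every PM library resembled its own genotype most, with a median correlation across genes of 0.97 to 0.98 within a genotype and 0.87 to 0.88 between them. All 12 fibroblast markers were above 1 FPKM in both genotypes. Their summed level was 15000 to 20600 FPKM in WT and 18000 to 24600 in Bmal1-/-. The keratinocyte markers Krt1 and Dsg3 and the muscle regulator Myod1 were listed at 0 in every PM library, and T cell markers summed to at most 1.7 FPKM. Of the 3 keratinocyte markers tested 2 were lower in Bmal1-/-, and the 10 markers summed to 2.81 to 4.34 FPKM against 9.24 to 12.5 in WT. Adipocyte markers differed, with 3 of 4 tested called higher and a sum of 145 to 218 FPKM in Bmal1-/- against 73.1 to 125 in WT. Tendon markers went the other way, with 3 of 5 lower and a sum of 196 to 258 against 325 to 430 FPKM, and melanocyte markers summed to 4.13 to 6.64 against 17.6 to 28.2 FPKM. In bulk RNA, fewer cells of a type and less RNA per cell cannot be told apart.

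Arntl transcript (ENSMUSG00000055116, chromosome 7, 113207465 to 113314126, GRCm38) was present in both genotypes. It ran from 5.27 to 10.2 FPKM (median 7.35) in WT and from 6.75 to 8.14 FPKM (median 7.30) in Bmal1-/-. The groups overlapped and the difference was 0.01 ± 0.06 (SE, adjusted p = 0.86). A gene-level value cannot show a deletion whose exons are not named, so this value does not check the labels. The spread differed more than the level: WT Arntl moved by a 24 h cosine amplitude of 0.31 on the log2 scale and peaked near CT0.5, against an amplitude of 0.03 in Bmal1-/-.

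Of 28 clock genes tested from 5 lists, 3 were called higher and 5 lower, beside 7.31% higher and 8.24% lower over all genes. The partners of BMAL1 split. Clock, which encodes its main partner, ran from 11.9 to 17.3 FPKM (median 14.9) in WT and from 5.31 to 6.94 FPKM (median 6.28) in Bmal1-/-, with no overlap and a difference of -1.13 ± 0.03 (SE, adjusted p = 3.37e-17). Npas2, the alternative partner, ran from 1.40 to 3.81 FPKM (median 2.52) in WT and from 5.21 to 7.91 FPKM (median 6.52) in Bmal1-/-, a difference of 1.12 ± 0.09 (SE, adjusted p = 4.59e-10). The BMAL1 paralog gene Arntl2 was higher at 16 of 17 CT labels, by 0.78 ± 0.09, but did not reach the 2-fold limit.

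Among the repressors, Cry1 and Per3 moved in opposite directions. Cry1, which encodes a strong transcriptional repressor of the loop, ran from 3.5 to 6.25 FPKM (median 4.88) in WT and from 20.2 to 23.5 FPKM (median 22.1) in Bmal1-/-, a difference of 1.95 ± 0.05 (SE, adjusted p = 6.28e-18). Per3 ran from 5.85 to 14.4 FPKM (median 9.22) in WT and from 0.999 to 1.85 FPKM (median 1.51) in Bmal1-/-, a difference of -2.03 ± 0.08 (SE, adjusted p = 2.19e-15). Neither gene's groups overlapped. Cry2 was also higher in every Bmal1-/- library than in any WT library, 15.6 to 19.3 against 6.88 to 10.6 FPKM, and its difference of 0.97 fell just short of 2-fold. Per1 and Per2 overlapped between genotypes, at 0.16 and 0.52. The highest Bmal1-/- values of Per2 were 8.50 FPKM at CT24 and 7.25 FPKM at CT45, against a median of 4.12 FPKM, and they stood apart from their neighbours in time.

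The receptors of the second loop were all below WT. Nr1d2, which encodes REV-ERB beta, ran from 9.04 to 17.9 FPKM (median 13.9) in WT and from 0.624 to 1.18 FPKM (median 0.741) in Bmal1-/-, a difference of -3.05 ± 0.07 (SE, adjusted p = 3.45e-19). Nr1d1, which encodes REV-ERB alpha, ran from 11 to 31.1 FPKM (median 20.2) in WT and from 3.55 to 6.42 FPKM (median 4.82) in Bmal1-/-, a difference of -1.85 ± 0.10 (SE, adjusted p = 7.15e-13). The activator gene Rora stood at -0.78 with no overlap, short of 2-fold, and Rorb was below the filter. Of the clock output factors with a PAR bZIP domain, Hlf showed the largest difference of the 28 genes, 11.4 to 28.8 FPKM (median 20.4) in WT against 0.194 to 2.21 FPKM (median 0.826) in Bmal1-/-, or -3.60 ± 0.11 (SE, adjusted p = 7.36e-17). Tef and Dbp, of the same family, stood at 0.26 and -0.57 and overlapped. The kinase and ubiquitin enzyme genes held 1 call of 9, the deubiquitinase gene Usp2 at 1.10 ± 0.10, from 1.76 to 4.35 FPKM in WT and 4.86 to 12.4 FPKM in Bmal1-/-.

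**Figure D1:**
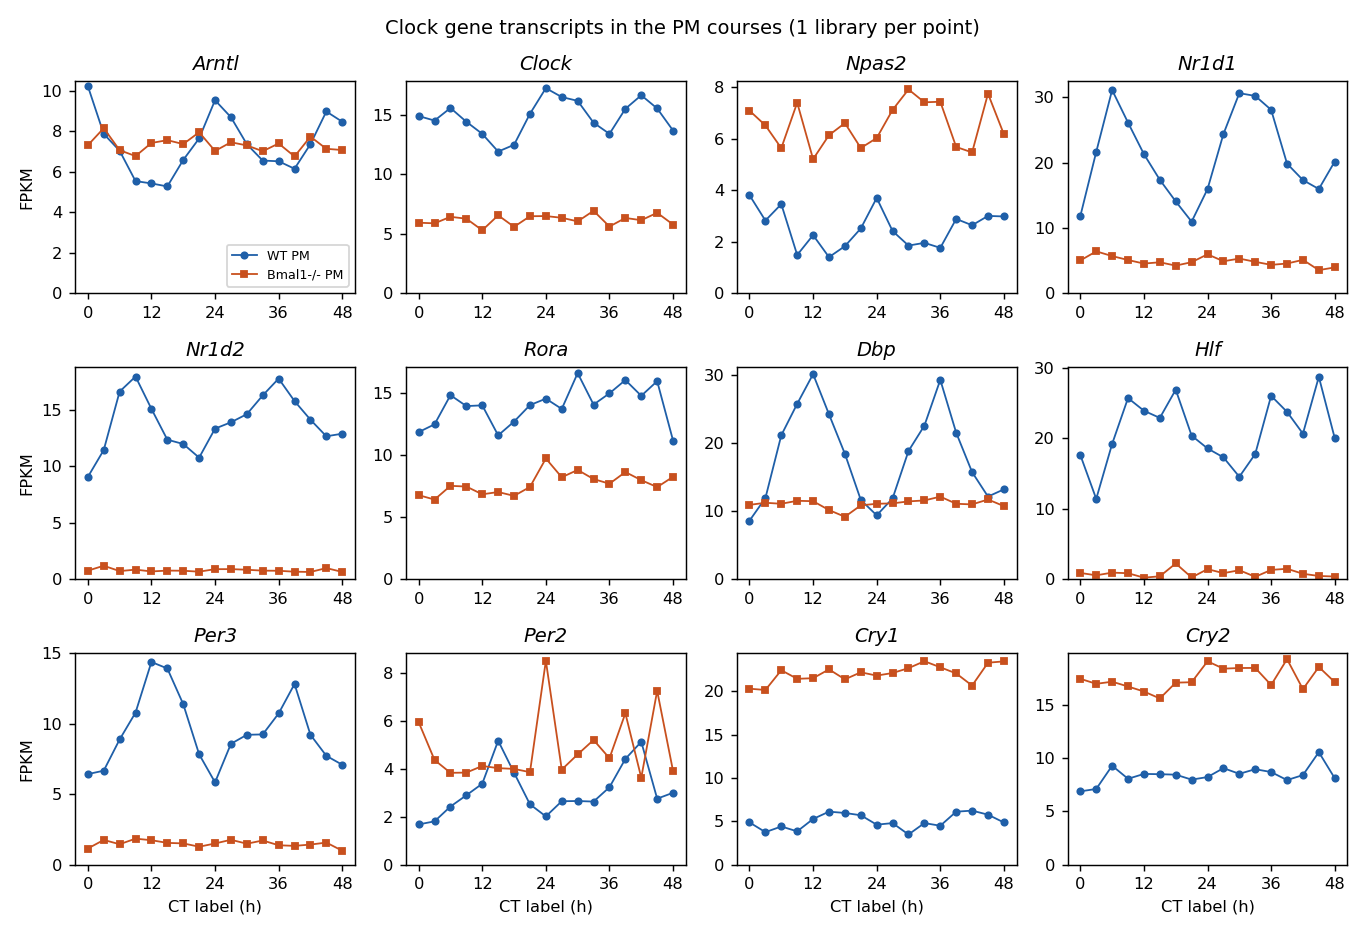
Transcript level in FPKM (y axes from 0) of 12 clock genes against CT label in hours for the WT PM (circles) and Bmal1-/- PM (squares) courses, with 1 library per point. WT Dbp swings between 8.57 and 30.1 FPKM while Bmal1-/- Dbp stays between 9.14 and 12.1 FPKM, and the genotypes do not overlap for Clock, Npas2, Nr1d1, Nr1d2, Rora, Hlf, Per3, Cry1 or Cry2.

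Promoter sequences from RefSeq (GRCm38.p6) were searched on both strands for the E-box CACGTG, through which BMAL1 acts, the D-box TTATGTAA, through which DBP, TEF, HLF and NFIL3 act, the ROR element core TAGGTCA, and the CHR element TTTGAA of cell cycle genes. None of these motifs contains another. The window searched was the 250 bases before each start. There the E-box was present in 5 of 24 clock genes with an entry (20.8%). It was present in 6.9% of all 27025 genes with an entry and in 10.0% of the 9297 of these tested in PM. The D-box was present in 1 of 24 clock genes (4.2%), in 1.0% of all and in 0.5% of those tested. Only 2 of the 8 called clock genes had an E-box, D-box or ROR core there, and these are shown because they are the pair of repressor genes that moved in opposite directions: Per3, lower, holds 2 D-boxes and no E-box in the window, and Cry1, higher, holds 1 E-box. The 250 bases before each start are given 5′ to 3′ on the gene's strand, with the motifs in capitals. Per3 is on the minus strand at chr4:151044666-151044915, with D-boxes beginning 205 and 158 bases before the start. Cry1 is on the minus strand at chr10:85185055-85185304, with the E-box beginning 60 bases before the start.
Per3: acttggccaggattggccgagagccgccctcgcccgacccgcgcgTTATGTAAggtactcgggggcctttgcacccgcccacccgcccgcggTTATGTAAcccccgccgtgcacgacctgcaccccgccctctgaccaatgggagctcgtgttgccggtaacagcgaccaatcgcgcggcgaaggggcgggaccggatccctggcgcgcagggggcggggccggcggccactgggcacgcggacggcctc
Cry1: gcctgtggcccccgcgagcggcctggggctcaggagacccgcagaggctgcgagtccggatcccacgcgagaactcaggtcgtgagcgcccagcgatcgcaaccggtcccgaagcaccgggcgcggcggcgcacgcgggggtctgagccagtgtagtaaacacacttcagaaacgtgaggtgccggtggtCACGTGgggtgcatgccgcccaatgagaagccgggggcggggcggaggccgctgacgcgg
A match is a description of the letters and not a bound site, and no match says only that these letters are not in the window.

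The genotype difference depended on the time label over 24 h in 2 of 13431 genes (0.0149%), both clock genes, by the moderated F test in limma, while 1248 genes had an unadjusted p under 0.05. The difference for Dbp, an output factor driven directly by BMAL1-CLOCK, moved with an amplitude of 0.67 ± 0.06 (SE, adjusted p = 0.000684) and was most positive near CT24. WT Dbp went from 8.57 FPKM at CT00 to 30.1 at CT12 and from 9.36 at CT24 to 29.3 at CT36, while Bmal1-/- Dbp stayed between 9.14 and 12.1 FPKM. The Dbp groups therefore met at the WT troughs and separated at the WT peaks. The difference for Nr1d1 moved with an amplitude of 0.56 ± 0.06 (SE, adjusted p = 0.00225) and was most positive near CT20.3, and the WT amplitude was 0.62 against 0.10 in Bmal1-/-. Of the 8 genes next in rank, Cry1 (adjusted p = 0.0603), Arntl (adjusted p = 0.101) and Nfil3 (adjusted p = 0.101) are clock genes, and their WT amplitudes of 0.27, 0.31 and 0.24 compare with 0.03, 0.03 and 0.05 in Bmal1-/-. The other ranked genes were Serbp1, Kcmf1, Dvl1, Sec16b and Fbn2. Sec16b, which encodes a secretory pathway protein, had the larger amplitude in Bmal1-/-, 0.27 against 0.13. None of these 8 passed the adjusted threshold.

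Genes of the p53 pathway were higher in Bmal1-/-. p53, encoded by Trp53, is a stress-activated transcription factor that halts the cell cycle, and MDM2 marks it for destruction. Trp53 itself was not called, at 0.35. Of 26 p53 targets tested, 18 were called higher and 1 lower, with a median of 1.63, beside 7.31% higher and a median of -0.01 over all genes. Of 8 regulators of p53, 4 were higher and 0 lower, with a median of 0.84. Cdkn1a, the gene of the cell cycle inhibitor p21, ran from 2.66 to 5.69 FPKM (median 3.49) in WT and from 114 to 135 FPKM (median 123) in Bmal1-/-, a difference of 4.73 ± 0.06 (SE, adjusted p = 9.02e-23). Mdm2 ran from 14.6 to 21.8 FPKM (median 18.4) in WT and from 84.6 to 112 FPKM (median 96.8) in Bmal1-/-, a difference of 2.36 ± 0.05. Every Bmal1-/- library exceeded every WT library for both genes. Psrc1, a spindle-associated target, stood at 4.79 ± 0.08, with 1.31 to 5.79 FPKM in WT and 79.8 to 114 FPKM in Bmal1-/-. The death receptor genes Eda2r (3.98), Tnfrsf10b (2.90) and Fas (2.46), and the pro-apoptotic genes Bbc3 (2.1), Bax (1.59) and Pmaip1 (1.33), were higher too, as was Ccng1 (3.46 ± 0.04), which rose from 15.2 to 19.7 FPKM in WT to 185 to 236 FPKM in Bmal1-/-. The kinase gene Plk3 was the target called lower, at -1.20, and the repair genes Ddb2 (-0.07) and Xpc (0.36) and the metabolic gene Tigar (0.18) were not called. Gdf15, a secreted p53 target, was below the filter in both genotypes, with medians of 0.277 and 0.289 FPKM.

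Cell cycle transcripts were lower in Bmal1-/-, in cultures that the labels describe as confluent for both genotypes. Of 27 mitosis genes, 25 were called lower and 0 higher (median -1.71), of 16 cyclin and CDK genes 8 were lower and 0 higher (median -0.96), and of 27 DNA replication genes 10 were lower and 0 higher (median -0.82), beside 8.24% lower over all genes. With a filter at a mean of 5 FPKM, 10 mitosis genes were lower. Top2a, the topoisomerase that untangles sister chromatids, ran from 23.7 to 40.6 FPKM (median 29.3) in WT and from 2.18 to 5.06 FPKM (median 3.42) in Bmal1-/-, a difference of -2.81 ± 0.08 (SE, adjusted p = 1.65e-17). Mki67, the gene of the proliferation antigen Ki-67, ran from 7.09 to 13.8 FPKM (median 9.11) in WT and from 0.637 to 1.13 FPKM (median 0.854) in Bmal1-/-, a difference of -2.47 ± 0.06. Neither gene's groups overlapped. Ube2c (-2.44), Cenpa (-2.43), Ccna2 (-2.75) and Uhrf1 (-2.07), which act in mitotic exit, at the centromere, in S and G2 phase and in maintenance of DNA methylation, followed the same direction. The members not called were Pttg1 (0.39) and Mad2l1 (-0.71) in mitosis, and the S phase genes Pcna (-0.09) and Rrm1 (0.20) overlapped between genotypes. The CDK inhibitors did not move together: besides Cdkn1a, Cdkn1c fell, 11.2 to 20.2 FPKM in WT against 1.32 to 4.28 in Bmal1-/- (-2.32 ± 0.08), and Cdkn2a, the Ink4a/Arf gene, fell from 519 to 713 FPKM in WT to 180 to 225 FPKM in Bmal1-/- (-1.54 ± 0.04). Cdkn1b (0.19) and Cdkn2b (-0.07) were not called.

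**Figure D2:**
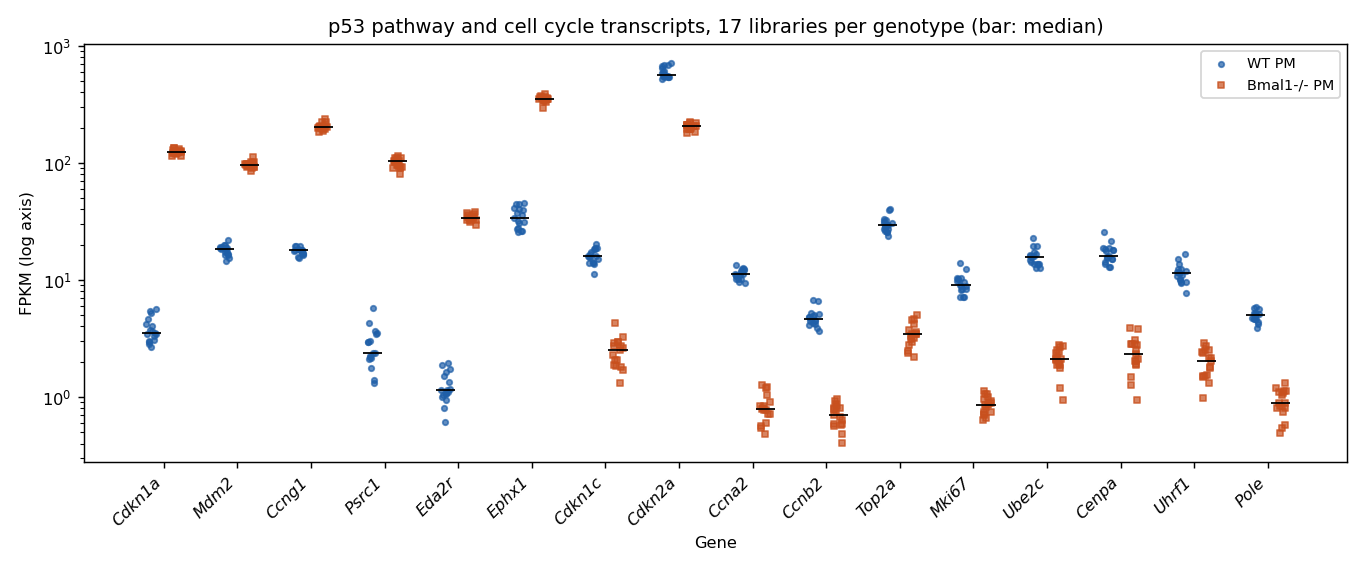
FPKM on a log axis in each of the 17 WT PM libraries (circles) and 17 Bmal1-/- PM libraries (squares) for genes of the p53 pathway, CDK inhibitors, cyclins, mitosis and DNA replication, with bars at the medians. The genotypes do not overlap for any gene shown, and Cdkn1a stands at 114 to 135 FPKM in Bmal1-/- against 2.66 to 5.69 in WT.

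The CHR element was present in 7 of 24 mitosis genes with a promoter entry (29.2%), in 18.3% of all genes with one and in 12.3% of the genes tested in PM. The promoters of the 2 mitosis genes with the largest falls among those that hold it are shown, since this element is the known docking site of the complexes that switch such genes on and off through the cell cycle. Top2a is on the minus strand at chr11:99024190-99024439, with CHR letters beginning 179 and 23 bases before the start, the latter on the opposite strand and so read here as its reverse complement. Mki67 is on the minus strand at chr7:135716380-135716629, with CHR letters beginning 116 and 98 bases before the start.
Top2a: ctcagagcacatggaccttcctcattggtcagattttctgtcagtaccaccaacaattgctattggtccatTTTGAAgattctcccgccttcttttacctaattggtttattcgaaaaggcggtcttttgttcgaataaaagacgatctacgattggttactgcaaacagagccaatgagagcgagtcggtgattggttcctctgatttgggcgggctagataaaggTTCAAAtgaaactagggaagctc
Mki67: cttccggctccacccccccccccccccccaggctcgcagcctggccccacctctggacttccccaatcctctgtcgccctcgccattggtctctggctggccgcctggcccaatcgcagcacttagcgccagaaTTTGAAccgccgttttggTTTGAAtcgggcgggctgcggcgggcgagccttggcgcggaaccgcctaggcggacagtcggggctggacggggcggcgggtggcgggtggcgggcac

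At least an 8-fold difference was called in 60 genes higher and 107 lower. Anxa8, an annexin that binds membranes in the presence of calcium, was listed at 0 to 0.0917 FPKM in WT (median 0.0241) and at 74.3 to 116 FPKM (median 84.2) in Bmal1-/-, a difference of 6.42 ± 0.05 (SE, adjusted p = 3.21e-26). Agt, the gene of angiotensinogen, rose from 7.16 to 13.1 FPKM (median 12.1) in WT to 482 to 599 FPKM (median 552) in Bmal1-/-, a difference of 5.53 ± 0.06. The iron carrier gene Trf (5.69), the myelin regulator Myrf (5.42), the BMP family ligand gene Gdf10 (5.39), the neuronal calcium sensor gene Vsnl1 (5.25), Tmeff2 (5.17), the lipid epoxide hydrolase gene Ephx2 (5.14), the G protein subunit gene Gng13 (5.10), the carboxylesterase gene Ces2g (4.97) and the retinal dehydrogenase family gene Aldh1a7 (4.75) completed the 12 largest rises with Psrc1. In each the lowest Bmal1-/- library exceeded the highest WT library.

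Among the falls, Itm2a, a membrane protein gene of early mesenchymal differentiation, ran from 131 to 214 FPKM (median 162) in WT and from 0 to 0.572 FPKM (median 0.0621) in Bmal1-/-, a difference of -7.24 ± 0.07 (SE, adjusted p = 2.31e-25). Igfbp5, which binds insulin-like growth factors, ran from 177 to 531 FPKM (median 375) in WT and from 0.576 to 3.28 FPKM (median 1.21) in Bmal1-/-, a difference of -7.19 ± 0.16. Tnmd, a marker of tendon and ligament cells, ran from 154 to 230 FPKM (median 179) in WT and from 0.0767 to 1.21 FPKM (median 0.291) in Bmal1-/-, a difference of -7.11 ± 0.06. These 3 transcripts were above 100 FPKM in every WT library and below 5 FPKM in every Bmal1-/- library. The other large falls were Art3 (-6.49), the developmental regulator gene Zic1 (-6.37), the retinoic acid binding protein gene Crabp1 (-6.33), Arhgdib (-5.44), the BMP antagonist gene Grem1 (-5.29), the water channel gene Aqp1 (-5.16) and the Hox genes Hoxa9 (-5.83), Hoxc10 (-5.27) and Hoxa10 (-5.15).

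Hox genes, which mark body position and lie in 4 clusters in the order in which they act from head to tail, separated the genotypes mainly at the tail-side end of the clusters. Of 26 tested Hox genes, 1 was higher and 11 lower (median -0.66), beside 7.31% higher and 8.24% lower over all genes. With a pseudocount of 0.1 FPKM 3 were higher. Hoxa9 ran from 49.7 to 70.2 FPKM (median 55.8) in WT and from 0 to 0.315 FPKM (median 0) in Bmal1-/-. In the Hoxa cluster, Hoxa5, Hoxa6, Hoxa7, Hoxa9 and Hoxa10 were lower (-1.67 to -5.83), whereas Hoxa3 (-0.87) and Hoxa4 (0.76) were not called. In the Hoxb cluster Hoxb9 averaged 30.5 ± 1.62 FPKM (SD, n = 17) in WT and 0.0775 ± 0.0618 in Bmal1-/-, Hoxb6 (-1.36) and Hoxb8 (-1.43) were lower, and Hoxb7 was not called (0.09). Hoxb2, at the other end, was the gene called higher, 0.871 ± 0.164 FPKM in WT against 6.80 ± 0.677 in Bmal1-/- (SD, n = 17 each). In the Hoxc cluster Hoxc9 (-4.05) and Hoxc10 (-5.27) were lower, while Hoxc6 stayed high in both, at 111 ± 6.45 and 82.6 ± 4.87 FPKM (SD, n = 17 each). In the Hoxd cluster Hoxd9 alone was called (-1.90), and Hoxd8 differed little (-0.10). Every group 9 and group 10 gene tested was lower in Bmal1-/-, and none of the 11 genes called lower belonged to groups 1 to 4.

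**Figure D3:**
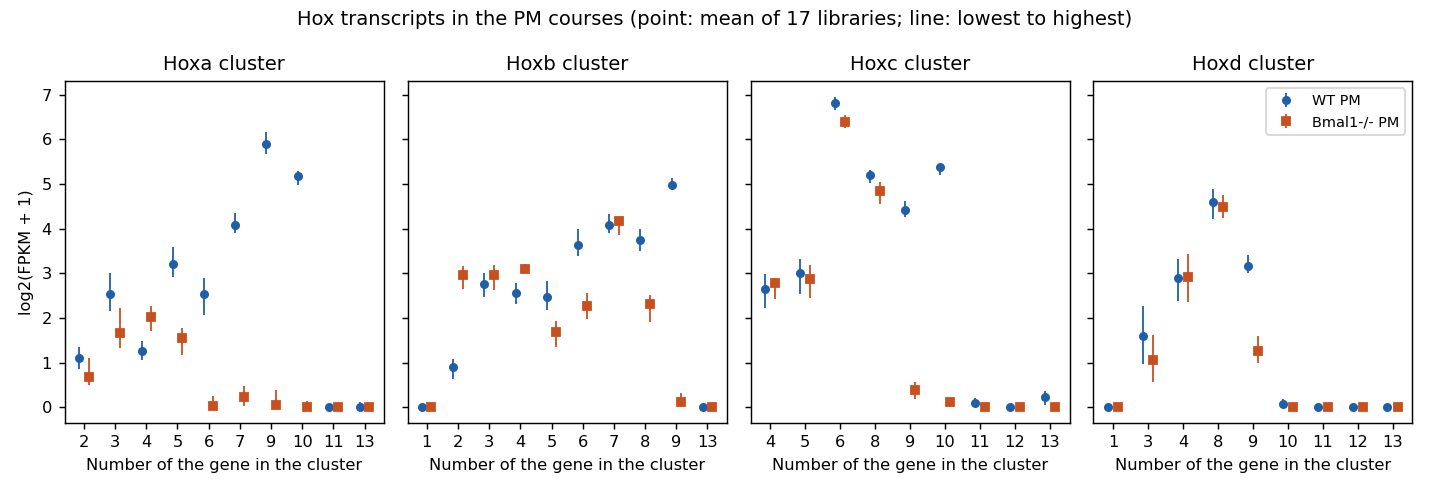
log2(FPKM + 1) of Hox genes of the 4 clusters by gene number, low numbers being the head-side genes, in the WT PM (circles) and Bmal1-/- PM (squares) courses, each point the mean of 17 libraries with a line from the lowest to the highest. Hoxa6 to Hoxa10, Hoxb9, Hoxc9 and Hoxc10 lie near 0 in Bmal1-/- and are expressed in WT.

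Other transcription factors of position also switched in both directions: of 45 tested, 10 were higher and 17 lower, beside 7.31% and 8.24% over all genes. Zic1 ran from 73.0 to 92.3 FPKM (median 86.1) in WT and from 0 to 0.228 FPKM (median 0.0166) in Bmal1-/-, with Lhx8 (-4.11), Tfap2a (-3.52) and Ebf3 (-3.51) behind it. En1, a mark of ventral ectoderm and of a dermal fibroblast lineage, stood at -3.06. Gata4, a heart and gut factor, ran from 0 to 0.382 FPKM (median 0.0626) in WT and from 8.82 to 12 FPKM (median 9.85) in Bmal1-/-, a difference of 3.31. Alx4 (2.88) and Gata6 (2.42) were higher with it, and Tbx1 was listed at 0 in all 17 WT libraries and at 1.75 to 2.78 FPKM in Bmal1-/-. Imprinted genes, which are read from 1 parental copy, divided 6 higher to 5 lower of 19: H19 fell from 53.5 to 98.0 FPKM in WT to 0.899 to 3.58 FPKM in Bmal1-/- (-4.80), while Peg3 was at 0 to 0.156 FPKM in WT and 12.1 to 21.4 FPKM in Bmal1-/- (3.94), and Ndn rose by 2.69.

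Matrix genes were changed mostly member by member, and over all genes 7.31% were called higher and 8.24% lower. Of 27 collagen chain genes 4 were higher and 9 lower (median 0.02; 5 lower relative to the chromosome median), and of 43 matrix glycoprotein genes 4 were higher and 16 lower (median -0.64). Col12a1, a fibril-associated chain, ran from 96.5 to 158 FPKM (median 132.5) in WT and from 5.17 to 8.96 FPKM (median 6.57) in Bmal1-/-, a difference of -4.05. Spp1, the gene of osteopontin, ran from 593 to 783 FPKM (median 670.5) in WT and from 27.3 to 38.8 FPKM (median 31.7) in Bmal1-/-, a difference of -4.37. Efemp1, the gene of fibulin-3, moved the other way, from 96.1 to 163 FPKM (median 127) to 935 to 1160 FPKM (median 1060), a difference of 3.07. No library of either genotype overlapped for these 3. The elastic fibre genes divided: Fbn1 (-1.72), Fbn2 (-2.32), Mfap4 (-1.53) and Mfap5 (-1.36) were lower, and Eln (2.12) and Ltbp4 (2.75) higher. Dcn, the gene of the small proteoglycan decorin, rose by 1.25, and Ogn (-1.75) and Omd (-1.3) of the same family fell. Among matrix proteases Mmp3 fell from 251 to 362 FPKM in WT to 7.38 to 10.7 FPKM (-4.93), with Mmp9 (-3.69) and Mmp13 (-2.62), and the inhibitor genes Timp1 (1.46) and Timp3 (1.33) rose.

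Of 15 contractile genes 7 were lower, 0 higher and 8 not called (median -0.82), beside 8.24% lower over all genes. Ankrd1, a target of the mechanically regulated factor YAP, ran from 9.51 to 36.1 FPKM (median 18.5) in WT and from 0.254 to 0.779 FPKM (median 0.525) in Bmal1-/-, a difference of -3.80, and the actin-binding genes Tpm2 (-1.66) and Cnn1 (-1.54) were lower. Most adhesion genes were not called: of 14 integrin genes 1 was higher and 3 lower, and of 13 cadherin and adhesion genes 1 was higher and 1 lower (median 0.29). The cadherin and adhesion counts were near the shares over all genes, 7.31% higher and 8.24% lower. Itga11, a collagen receptor subunit gene, stood at -3.56, the mesenchymal cadherin gene Cdh11 at -1.25 and Itgb3 at 1.35.

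Growth factor pathways changed at several levels. Among ligands of the PDGF, VEGF, HGF and EGF families and their receptors, 3 of 27 were higher and 11 lower (median -0.80). Over all genes the shares were 7.31% higher and 8.24% lower. Vegfc, a ligand for lymphatic growth, ran from 12.9 to 19.7 FPKM (median 16.2) in WT and from 0.158 to 0.578 FPKM (median 0.242) in Bmal1-/-, a difference of -3.73. The receptor genes Pdgfra (-2.04), Pdgfrb (-1.35), Ngfr (-2.69) and Nrp2 (-3.64) were lower, and the ligand gene Hgf was higher (1.70). In the IGF system 5 of 13 genes were higher and 5 lower: the binding protein genes Igfbp5 and Igfbp3 (-3.31) fell, Igfbp4 (1.95) and Igfbp6 (1.21) rose, and Pappa, the protease that cleaves IGFBP4, fell (-2.90). Of 18 BMP and Wnt antagonist genes 6 were lower and 1 higher, with Grem1 at 34.9 to 66.7 FPKM in WT and 0.0912 to 0.471 FPKM in Bmal1-/-. The BMP target genes Id1 (2.06) and Id2 (1.51) were higher and Id4 lower (-2.44), and the co-receptor gene Eng fell from 34.3 to 42.7 FPKM to 0.770 to 1.28 FPKM (-4.29). Of the Wnt amplifier genes Rspo3 (-3.92) and Rspo2 (-3.14) were lower. In Hedgehog and Notch signalling, Gli3 (-1.89) and Gli2 (-1.18) were lower and the Notch target gene Hes1 was higher (2.81), with 0.386 to 2.22 FPKM in WT and 11.5 to 18.4 FPKM in Bmal1-/-. Of 11 genes of the FGF list 1 was higher and 4 lower, among them the feedback inhibitor gene Spry1 (-2.31), and of 15 ETS factor genes 0 were higher and 3 lower, among them Etv4 (-2.33) and Etv5 (-1.80).

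Interferon-stimulated genes were lower or not called. Of 37 tested, 0 were higher and 12 lower (median -0.43), beside 7.31% higher and 8.24% lower over all genes. In 9 of the 37 every Bmal1-/- library lay below every WT library, beside 2405 of all 13431 tested genes. The first 8 CT labels alone gave 14 lower and the next 8 gave 6, and relative to the chromosome median 10 were lower and 1 higher. Ifi44 ran from 12.5 to 57.1 FPKM (median 20.1) in WT and from 0.734 to 6.85 FPKM (median 2.52) in Bmal1-/-, a difference of -2.78, and the antiviral regulator gene Irf7 stood at -1.77. WT Ifi44 lay at 53.8 FPKM at CT00 and 22.3 at CT48, and its highest WT value, 57.1 FPKM, came at CT09. Chemokine genes Ccl5 (-3.13), Cxcl10 (-2.99) and Cx3cl1 (-2.62) were lower, and the acute phase gene Saa3 rose from 62.4 to 131 FPKM to 486 to 661 FPKM (2.69). Complement genes were divided, 6 higher and 3 lower of 13: C3, the central component, rose from 1238 to 1616 FPKM (median 1477) to 2704 to 4042 FPKM (median 3301), a difference of 1.16, Cd55, which protects cells from complement, rose by 4.54, and Serping1, the inhibitor of C1, fell from 165 to 216 FPKM to 4.25 to 6.53 FPKM (-4.85).

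Of 15 thioredoxin and peroxiredoxin genes 3 were higher and 1 lower: Prdx6 fell from 192 to 271 FPKM (median 218) to 55.8 to 75.9 FPKM (median 67.4), a difference of -1.75, while Prdx3 (1.02), Prdx4 (1.17) and Prdx5 (1.04) stood just past 2-fold. In the first 8 CT labels alone all 3 fell below the limit (0.96, 0.96 and 0.98), as did Prdx3 (0.93) and Prdx5 (0.95) relative to the chromosome median and Prdx4 (0.99) relative to the length class median. Of 27 genes of glutathione, superoxide and NRF2 biology 6 were higher and 2 lower, with the NRF2 targets Gclc (1.40) and Gsr (1.16) higher and Gpx3 (-2.34) and Gsta4 (-2.83) lower. The unfolded protein response had 1 higher and 1 lower of 24, and glycolysis and hypoxia 1 and 1 of 24. These are near the shares over all genes, 7.31% higher and 8.24% lower. Of 33 sterol and fatty acid synthesis genes 0 were higher and 5 lower (median -0.49; 3 lower relative to the chromosome median), with Scd1, which makes monounsaturated fatty acids, at 27.4 to 38.0 FPKM in WT and 12.6 to 16.6 FPKM in Bmal1-/- (-1.16). Glucocorticoid targets divided 4 higher to 3 lower of 18, with Ddit4 at 2.37 and Pdk4 at -2.92. In the renin-angiotensin system, Agt rose while the converting enzyme gene Ace (-2.20) and the receptor genes Agtr1a (-1.47) and Agtr2 (-1.71) fell. Among iron genes, Trf and the ferritin gene Ftl1 (1.41) rose and the 4 Steap metalloreductase genes fell (-1.3 to -3.94). Of the fat cell genes, Pparg (1.21) and Fabp4 (2.56) rose and Cebpa fell from 15.8 to 27.7 FPKM to 1.85 to 5.01 FPKM (-2.35).

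Cytosolic ribosomal protein genes were higher as a group: of 75, 45 were called higher and 1 lower (median 1.22), beside 7.31% and 8.24% over all genes. In 56 of the 75 every Bmal1-/- library exceeded every WT library, beside 2339 of all 13431 tested genes. Rps19 ran from 282 to 382 FPKM (median 327) in WT and from 1314 to 1609 FPKM (median 1456) in Bmal1-/-, a difference of 2.12, and Rps15 from 506 to 722 FPKM to 2047 to 2478 FPKM (1.91). Rpl5, a large subunit gene, was the member called lower (-1.04), a call lost in the first 8 CT labels alone and relative to the chromosome median. Ribosomal protein genes took 5.01 to 5.67% of the summed FPKM in Bmal1-/- libraries and 1.97 to 2.70% in WT. Transcript length moved with the genotype difference: over protein-coding genes the median was 0.17 for those with a mean transcript under 1000 bases and -0.23 at 4000 to under 8000 bases, against 0.07 and -0.01 in AM. In AM, 19 of 74 ribosomal protein genes were higher. Taken relative to the median of their length class, 39 of 75 were called higher in PM, and the part of length in their difference was not otherwise tested. Ribosomal proteins have many near-identical pseudogene copies, so their reads may be split. Annotated pseudogenes of any kind made up 148 of the 982 genes called higher and 43 of the 1107 called lower. How many of these are copies of ribosomal protein genes was not tested.

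The level of whole chromosomes differed between the genotypes. Over genes averaging 5 FPKM or more, the median difference was 0.60 on chromosome 14 (317 genes, a ratio of 1.51), -0.48 on chromosome 5 (671 genes), -0.48 on chromosome 13 (332 genes) and -0.39 on chromosome 3 (512 genes), ratios of 0.72, 0.72 and 0.76. On the other 15 autosomes and X the medians lay between -0.14 and 0.28. On chromosome 14, 82.9% of tested genes were above 0, and on chromosome 13, 18.1%. The shift ran along each chromosome: in windows of 20 Mb with at least 20 genes the median was 0.46 to 0.70 in the 4 windows of chromosome 14, -0.57 to -0.38 in the 8 of chromosome 5, -0.57 to -0.33 in the 8 of chromosome 3 and -0.62 to -0.28 in the 6 of chromosome 13. Every library followed its genotype. Relative to the mean of the WT and Bmal1-/- PM and AM groups, the chromosome 14 median was 0.27 to 0.31 in the 17 Bmal1-/- PM libraries and -0.32 to -0.26 in the 17 WT PM libraries. The AM courses gave the same picture, with 0.62 on chromosome 14 and -0.39, -0.50 and -0.38 on chromosomes 5, 13 and 3. DNA was not measured, and which genotype departs from the usual level cannot be told from a ratio between the 2.

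**Figure D4:**
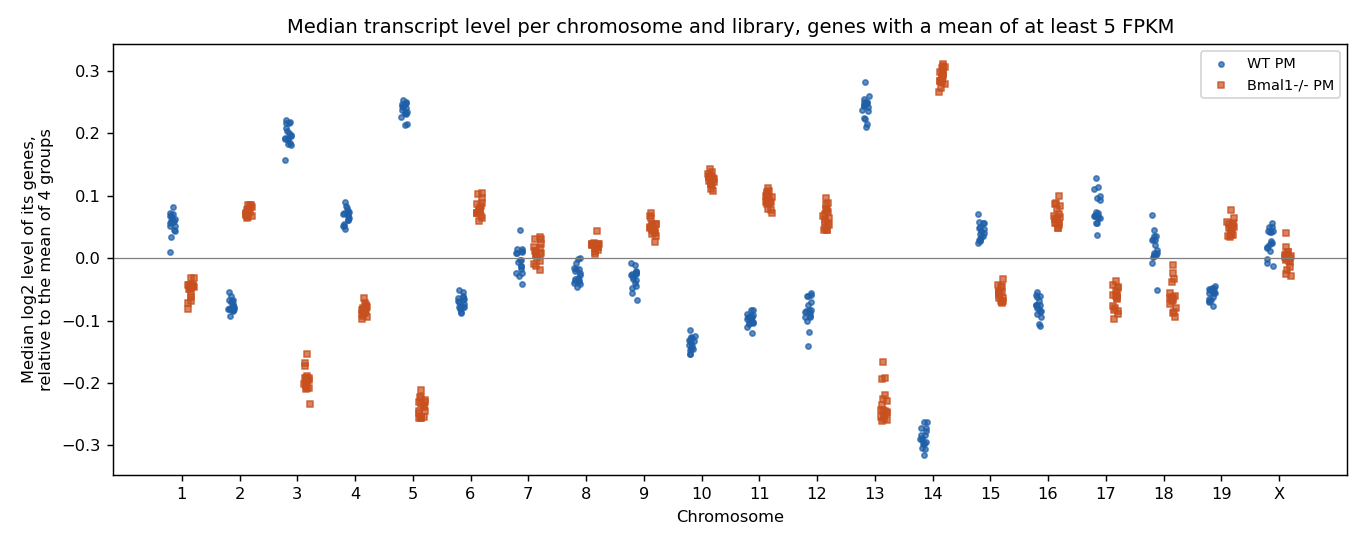
Median log2(FPKM + 1) of the genes of each chromosome in each WT PM (circles) and Bmal1-/- PM (squares) library, relative to the mean of the WT and Bmal1-/- PM and AM groups and centred on each library's own median, over genes averaging 5 FPKM or more. Chromosomes 3, 5 and 13 are lower and chromosome 14 higher in all 17 Bmal1-/- libraries than in any WT library.

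These chromosome shifts bear on genes near the 2-fold limit. On chromosome 14, 81 of 422 tested genes were called higher and 20 lower, but relative to the chromosome median 25 were higher and 36 lower. On chromosome 5, 35 were higher and 130 lower of 914, against 61 and 67 relative to its median. Clock, on chromosome 5, stood at -0.69 relative to the chromosome median and -0.91 relative to its length class, both below the limit, and the sterol synthesis gene Cyp51, on the same chromosome, at -0.68. Nr1d2, on chromosome 14, fell against the direction of its chromosome. Of 49 genes tested within 5 Mb on each side of Arntl on chromosome 7, 5 were higher and 4 lower, and the median was -0.08. These counts were near the shares over all genes, 7.31% higher and 8.24% lower.

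The PM difference resembled the AM difference in most genes. In AM, 902 of 13137 genes were higher (6.87%) and 1034 lower (7.87%). Of 2013 genes called in PM and tested in AM, 1503 were called in the same direction in AM (74.7%, and 79.3% of the genes AM called and PM tested) and 1 in the opposite direction. The test of the PM minus AM difference over all 68 libraries called 54 of 13307 genes positive (0.406%) and 61 negative (0.458%), while 7565 had an adjusted p under 0.05. Gabra3, a GABA receptor subunit gene, had the largest positive value of the named genes, 2.14 ± 0.13 (SE, adjusted p = 1.10e-15). It ran from 8.57 to 17.8 FPKM in WT PM and 12.5 to 19.2 FPKM in Bmal1-/- PM, but from 37.7 to 71.6 FPKM in WT AM and 12.8 to 18.8 FPKM in Bmal1-/- AM. The change thus lay in the WT libraries. Gng13 behaved otherwise, with a value of 1.68 ± 0.15, since Bmal1-/- stood at 26 to 57.9 FPKM in PM and 5.93 to 16.6 FPKM in AM while WT stayed at most at 0.651 FPKM in both. Clca3a2, a chloride channel regulator gene, had the most negative named value, -1.83 ± 0.10 (SE, adjusted p = 1.64e-16), from 1.12 to 4.19 FPKM in Bmal1-/- PM and 8.07 to 17 FPKM in Bmal1-/- AM. The metalloreductase gene Steap4 (-1.38) was lower in both genotypes in PM than in AM, 3.49 to 4.95 against 26.1 to 37.7 FPKM in Bmal1-/-. The matrix gene Svep1 was lower in Bmal1-/- in PM (-1.16) and not in AM (0.19), and Prdx4 and Igf1 were higher in PM (1.17 and 1.04) and not in AM (-0.10 and 0.00). No p53 target or mitosis gene other than Dcxr was called in this test.

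**Figure D5:**
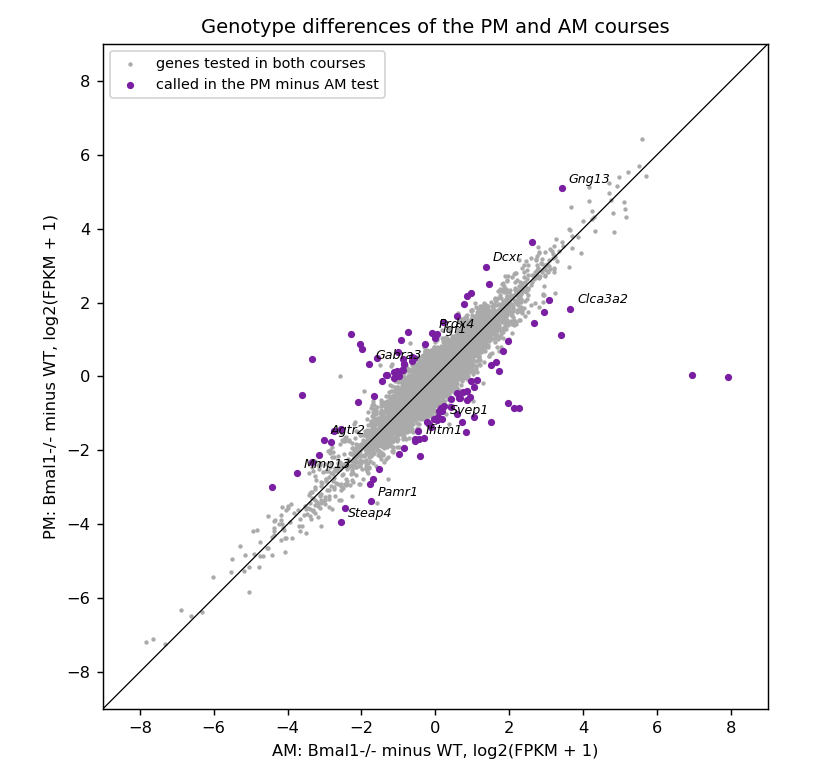
Bmal1-/- minus WT difference on the log2(FPKM + 1) scale in the PM courses (y axis) against the AM courses (x axis), 1 point per gene tested in both, with the genes called in the PM minus AM test in purple and a line of equal differences. Most genes lie along the line, and Gabra3, Gng13, Dcxr, Clca3a2 and Pamr1 are among those off it.

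Over the 48 h of the PM course the genotype difference drifted at least 2-fold toward Bmal1-/- in 65 genes (0.484%) and toward WT in 37 (0.275%). For Igfbp5 it became less negative by 2.20 ± 0.24 (SE, adjusted p = 0.000108), as WT went from 476 FPKM at CT00 to 177 at CT48 and Bmal1-/- from 0.713 to 2.24 FPKM. For Fgf18, a growth factor of skeletal and hair follicle development, it became more negative, with a drift of -1.93 ± 0.23 (SE, adjusted p = 0.000179), as WT went from 2.60 to 17 FPKM and Bmal1-/- stood at 0.857 and 1.20 FPKM at the same labels. Both genotypes moved for Inhbb, an activin subunit gene, with 3.31 to 9.62 FPKM in WT and 15.7 to 9.63 FPKM in Bmal1-/- from CT00 to CT48, so that the initial excess was gone at the end (-1.83 ± 0.13). Sned1 (1.79), Prlr (1.80), Sparcl1 (1.70), Hsd11b1 (-1.96), which regenerates active glucocorticoid, and Fgd3 (-1.75) were the other leading genes. Time after the dexamethasone pulse, time in culture and the CT label advance together here and cannot be told apart.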

How the data were processed

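The authors deposited 1 table of FPKM per gene and library, per the file headers; per the labels' protocols, poly(A) RNA went into stranded libraries, with single reads of 101 bases. Per the submitters' processing notes, Cuffdiff and TopHat (TopHat2 2.1.0) were used with GRCm38; settings and annotation: not given in the sources used here. Of 47631 gene IDs 47217 matched an annotation of that build. The table holds no counts: depth was estimated from the FPKM worth of 1 read, and 96.2% of the low values were whole to within 0.15 reads; no counting intervals were computed. Values were tested as log2(FPKM + 1) by two-sided tests in limma 3.58.1 (R 4.3.3), with the CT label as a block and an intensity trend, and p-values adjusted by Benjamini-Hochberg over all genes averaging 1 FPKM or more. Time dependence was tested on the 17 paired differences with linear time and a 24 h cosine and sine. The fits were tested on simulated data. The members and lists were chosen with earlier results of these data known. Named were all clock genes, the 12 largest rises and falls with 1 sign at all 17 CT labels (excluding predicted genes and pseudogenes from the names only), up to 4 called members per list, the 6 largest on each side of the PM minus AM test, the 10 smallest p for time dependence and the 4 largest drifts on each side. Other members were named after their values were seen, as were the Hox genes by cluster, the chromosome medians and the length classes. Promoters came from RefSeq; entries were not found for Per2, Bhlhe40, Csnk1d and Btrc. Values of some list members are not reported here.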

Additional observations from a re-analysis of the deposited data

Results flagged for a closer look

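Among the listed and named genes reported here, 27 had a PM genotype difference that departed from the AM one by at least 2-fold in the test of the difference itself (limma, adjusted p under 0.05), 12 in the positive and 15 in the negative direction. Values are the PM minus the AM difference in log2(FPKM + 1). The positive ones were Gabra3 (2.14), Gng13 (1.68), the sugar metabolism gene Dcxr (1.60), the vessel-destabilising ligand gene Angpt2 (1.35), the receptor gene Agtr2 (1.31), the lipid synthesis gene Agpat5 (1.31), Prdx4 (1.27), the chemokine gene Cxcl9 (1.25), the adhesion gene Alcam (1.15), the collagenase gene Mmp13 (1.13), Igf1 (1.04) and the chemokine gene Cxcl15 (1.00). The negative ones were Clca3a2 (-1.83), Pamr1 (-1.63), Steap4 (-1.38), Svep1 (-1.35), the iron exporter gene Slc40a1 (-1.35), the interferon-induced gene Ifitm1 (-1.25), the protease gene Adamts7 (-1.18), the glucose oxidation brake Pdk4 (-1.16), the lipase gene Lpl (-1.14), the BMP targets Id3 (-1.10) and Id1 (-1.03), Itga11 (-1.10), the neuregulin gene Nrg1 (-1.04), the chemokine gene Ccl2 (-1.03) and Inhbb (-1.01).

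In 9 of the 27 the 2 courses gave differences of opposite sign, some of them small. Examples were Gabra3 (0.33 in PM and -1.81 in AM), Angpt2 (0.46 and -0.89), Slc40a1 (-0.30 and 1.05) and Id3 (-0.13 and 0.97). In Svep1 (0.19), Nrg1 (0.09), Prdx4 (-0.1) and Igf1 (-0.0) the AM value was small beside the PM value. Pamr1, a secreted protease-like gene, lay at 16.6 to 55.3 FPKM in WT PM and 7.56 to 35.4 FPKM in WT AM, against 2.08 to 3.90 and 2.57 to 5.30 FPKM in Bmal1-/-. Since AM and PM are separate courses with 1 library per time point, the cause of these differences was not tested.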

How the results depend on the processing

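The counts of genes higher and lower in PM stayed within 1.5 times under each alternative run, except that a filter at a mean of 5 FPKM left 664 lower. In the PM minus AM test a pseudocount of 0.1 FPKM gave 101 positive and 133 negative genes, and in the drift it gave 100 more positive later. A 26 h period, or no linear time, left 1 time-dependent gene, Dbp, with Nr1d1 amplitudes of 0.52 and 0.47 past no threshold. The cause of these changes was not tested. No named value reversed. A pseudocount of 0.1 FPKM made Cry2 (1.05) and Ciart (-1.40) calls. The CT label did not pair the libraries: the correlation of same-label deviations ran from -0.06 to 0.09, and without the replicate block 2088 of the 2089 PM calls remained. Median-of-ratios scaling moved the median difference from -0.01 to 0.01, and 2040 calls remained. Relative to the chromosome median, an alternative chosen after seeing the data, 1764 of the 2089 calls remained, and 9 named genes fell below the limit, among them Clock (-0.69), Egr3 (0.58), Psme1 (0.81), Elovl6 (-0.76) and Cryab (0.99). Relative to the length class median, also added then, 1956 remained. In the first and the next 8 CT labels alone 1939 and 1972 remained. Depth is an estimate, so genes near the filter are the least certain.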

Other observations

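The axon guidance families, which steer growing cells through contact and secreted cues, held 6 genes higher and 12 lower of 37 in PM. Over all genes the shares were 7.31% higher and 8.24% lower. Slit2, a repellent ligand, ran from 49.9 to 80.7 FPKM in WT and from 2.68 to 7.09 FPKM in Bmal1-/- (-3.79), and Plxdc2 fell from 29.3 to 42.9 FPKM to 0.284 to 0.936 FPKM (-4.64). The receptor gene Epha3 was at 3.51 to 5.59 FPKM in WT and at most 0.0162 FPKM in Bmal1-/-, while Ephb1 was at most 0.0245 FPKM in WT and 2.41 to 5.65 FPKM in Bmal1-/-. Members of 1 receptor family thus switched in opposite directions. In retinoid biology Crabp2 fell (-4.19) beside Crabp1, and the binding protein gene Rbp4 (3.11) rose.

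Of the heat shock genes, Hsph1 (-1.54), Hspa1b (-1.39), Hspb6 (-1.18) and Dnaja1 (-1.05) were lower and Cryab higher (1.07), out of 21 tested. Cryab fell below the limit relative to the chromosome median (0.99) and to the length class median (0.89). Of 21 MHC class I and peptide loading genes 4 were higher and 2 lower, beside 7.31% higher and 8.24% lower over all genes. The higher ones were H2-T23, the proteasome activator genes Psme1 (1.38) and Psme2 (1.02) and the transporter gene Tap1 (1.01). The lower ones were H2-Q4 (-2.04) and H2-K1 (-1.17), so the called H2 genes went both ways. Psme1 stood at 0.81 relative to the chromosome median, and H2-K1 at -0.95 in the next 8 CT labels after the first 8. Psme2 and Tap1 stood just past the limit, and their own values in these alternatives were not examined.

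The 2 largest negative values in the PM minus AM test belonged to CT010467.1 (-7.95) and AY036118 (-6.93), entries that overlap ribosomal RNA sequence, singled out after their values were seen. CT010467.1 had a median of 0 FPKM in WT AM, 2950 in WT PM, 6920 in Bmal1-/- AM and 1760 in Bmal1-/- PM. With AY036118 and Gm42418 it took a median of 0.867% of summed FPKM in WT PM, with a range of 0 to 4.56%, and 0.435% in Bmal1-/- PM, with a range of 0.365 to 3.89%. Mitochondrial genes took 2.11 to 3.15% in WT PM and 1.32 to 3.01% in Bmal1-/- PM. Their part in the other results was not tested.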
